A study of Mus musculus with 21 samples.

Results

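Depot identity developmental factors are the genes that mark whether fat comes from inside the abdomen or from under the skin. The 9 genes described here were chosen by name: 6 visceral markers (Gata4, Gata6, Wt1, Tcf21, Msln and Upk3b) and 3 subcutaneous markers (Tbx15, Shox2 and En1), out of 21627 protein-coding genes on chromosomes 1 to 19 and X. For each gene, the peaks of estrogen receptor alpha (ERα) were collected whose summit lay inside the gene span or within 50 kb of it. Receptor binding had been profiled by ChIP-seq (sequencing of DNA recovered with an antibody to the receptor) in CD-1 mice aged 10 weeks. The tissues were vWAT (visceral white adipose tissue) from mice given estradiol (4 libraries) or vehicle (2 libraries), and scWAT (subcutaneous white adipose tissue, 3 libraries), BAT (brown adipose tissue, 1 library) and Liver (2 libraries), each from mice given estradiol. The labels do not state sex, dose, route or time of treatment, or whether libraries came from separate animals. Each of the 5 groups had 1 deposited peak list, so there was no spread between libraries, and every comparison is a description without a test.

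The members fall into 3 kinds. Gata4 and Gata6 encode zinc finger transcription factors of heart, gut and visceral mesoderm, Wt1 encodes a zinc finger factor of mesothelium, kidney and gonad, and Tcf21 encodes a basic helix-loop-helix factor of visceral mesoderm. Msln encodes mesothelin and Upk3b uroplakin 3B, both surface proteins of the mesothelium, the cell layer that covers abdominal organs and visceral fat. Tbx15 encodes a T-box factor, and Shox2 and En1 encode homeobox factors of limb and trunk patterning. ERα is a nuclear receptor that binds DNA as a dimer when it holds estradiol, often at distal enhancers that carry an inverted repeat of a short half-site, GGTCA.

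The table of RefSeq promoters (GRCm38.p6, the assembly of mm10) held windows for 4 of the 9 members, and no peak of any list overlapped a member's own window. Gata4, Gata6, Wt1, Msln and Tbx15 had no window, so their promoters were not examined this way. In vWAT with estradiol, summits lay 0.201 kb from an end of the Gata4 span and 0.497 kb from an end of the Gata6 span. Some of the peaks counted for Upk3b and Msln, and those counted for Shox2, lay at promoter windows of neighbouring genes. The sequences that follow are 2 members' own promoters, which no peak overlapped, and 2 of those neighbours' windows. Each is the 250 bases before a transcript start of the gene, 5′ to 3′ on the strand of the gene, with the half-site GGTCA or its reverse complement TGACC in capitals.
Upk3b: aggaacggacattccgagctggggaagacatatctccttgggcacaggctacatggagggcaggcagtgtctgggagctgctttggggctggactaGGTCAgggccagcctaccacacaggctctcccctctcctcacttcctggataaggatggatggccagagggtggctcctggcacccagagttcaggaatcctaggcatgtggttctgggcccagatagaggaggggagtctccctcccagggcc
Dtx2: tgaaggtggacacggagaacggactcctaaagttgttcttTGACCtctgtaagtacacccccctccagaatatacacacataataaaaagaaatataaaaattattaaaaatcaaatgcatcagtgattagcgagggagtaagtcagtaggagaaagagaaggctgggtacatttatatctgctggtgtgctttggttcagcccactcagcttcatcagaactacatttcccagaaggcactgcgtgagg
Tcf21: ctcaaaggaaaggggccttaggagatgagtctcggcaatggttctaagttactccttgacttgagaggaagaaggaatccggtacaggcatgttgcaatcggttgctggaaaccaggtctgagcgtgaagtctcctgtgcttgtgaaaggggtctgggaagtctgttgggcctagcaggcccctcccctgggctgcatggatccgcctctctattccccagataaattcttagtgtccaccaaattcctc
Rsrc1: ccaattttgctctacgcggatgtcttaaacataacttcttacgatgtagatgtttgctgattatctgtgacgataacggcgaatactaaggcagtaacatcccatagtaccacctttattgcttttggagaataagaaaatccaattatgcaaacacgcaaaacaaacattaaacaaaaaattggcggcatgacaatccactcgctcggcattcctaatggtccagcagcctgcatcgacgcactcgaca
The Upk3b window (chr5:136038246-136038495, plus strand) held 1 half-site and the Dtx2 window (chr5:135994550-135994799, plus strand) 1. The Tcf21 window (chr10:22820144-22820393, minus strand) and the Rsrc1 window (chr3:66985412-66985661, plus strand) held 0. The Rsrc1 window lies before a start inside the gene span, and a second Rsrc1 window beside it is not printed. A half-site on either strand was found in 40.5% of the 32851 windows of the table, each of 300 bases, and the full inverted repeat GGTCANNNTGACC in 0.0700% of them and in none of the 4 members' windows. These are letter matches, not measured sites.

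The visceral markers carried 20 peaks in the vWAT estradiol list, against 6 in the vWAT vehicle list, 9 in scWAT, 3 in BAT and 11 in Liver. The subcutaneous markers carried 1, 0, 4, 0 and 3 in the same order. All 6 visceral markers had at least 1 vWAT estradiol peak, as did 1 of the 3 subcutaneous markers, and 70.5% of all protein-coding genes did by the same rule. In scWAT 4 of 6 and 1 of 3 had a peak, against 70.2% of all genes. The counts were 4 and 0 with vehicle (54.6% of all genes), 3 and 0 in BAT (39.7%) and 4 and 3 in Liver (77.4%). Having a peak is therefore common for any gene in these lists. In tissue pieces, fewer cells with bound receptor and less binding per cell cannot be told apart, and the lists differ in length (20715, 7400, 17971, 5193 and 21411 peaks). When every list was reduced to the 5193 peaks with the smallest p-values, the visceral counts were 7, 6, 2, 3 and 7 in the same order, so that vWAT with estradiol no longer stood above Liver and exceeded vehicle by 1 peak.

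**Figure D1:**
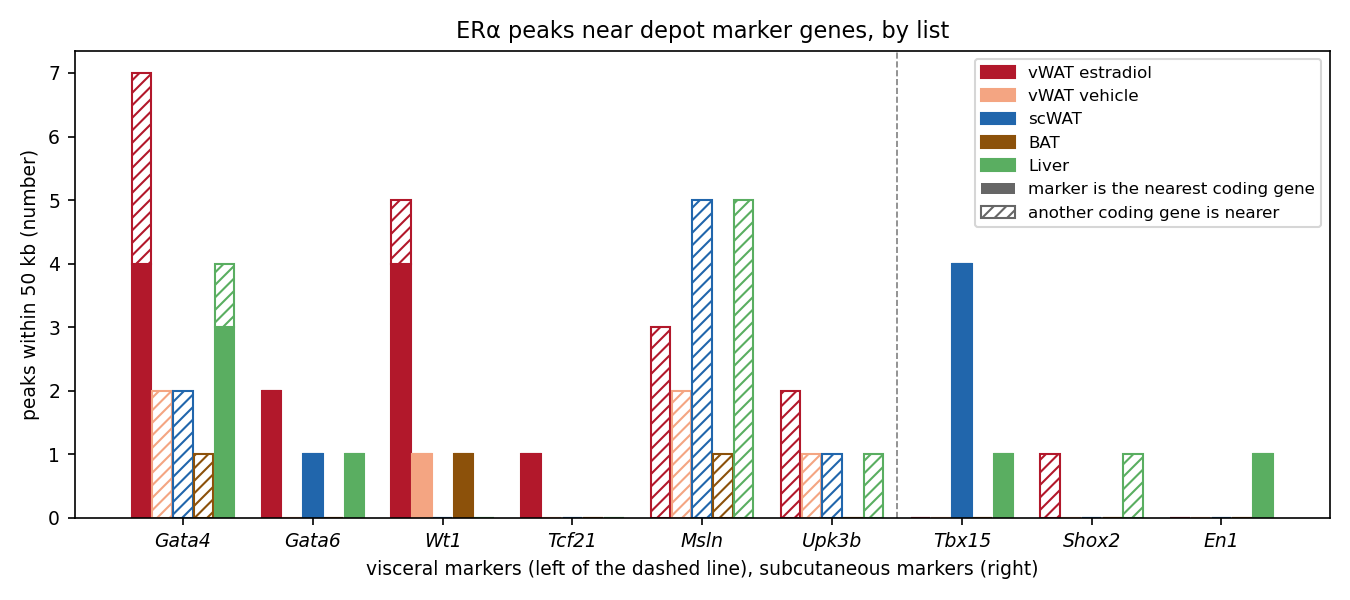
Bars give the number of ERα peaks within 50 kb of each marker gene in the 5 lists, filled where the marker is the nearest protein-coding gene and hatched where another gene is nearer. Gata4 reaches 7 and Wt1 5 in the vWAT estradiol list, Tbx15 has 4 in scWAT and none in either vWAT list, and all bars of Msln, Upk3b and Shox2 are hatched.

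Between the estradiol lists of the 2 white fat depots, 5 of 6 visceral markers had more vWAT than scWAT peaks (28.5% of all genes did). These were Gata4 (7 against 2), Gata6 (2 against 1), Wt1 (5 against 0), Tcf21 (1 against 0) and Upk3b (2 against 1). Msln was the exception, with 3 in vWAT and 5 in scWAT. Of the subcutaneous markers, Tbx15 had more scWAT peaks (4 against 0; 27.4% of all genes had more in scWAT), Shox2 more vWAT peaks (1 against 0), and En1 none in either. A vWAT peak without any scWAT peak was found for Wt1, Tcf21 and Shox2 (6.17% of all genes), and the reverse for Tbx15 (5.86%). The median per visceral marker was 2.5 vWAT estradiol peaks and 1 scWAT peak, where the median of all genes was 2 in both lists.

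**Figure D2:**
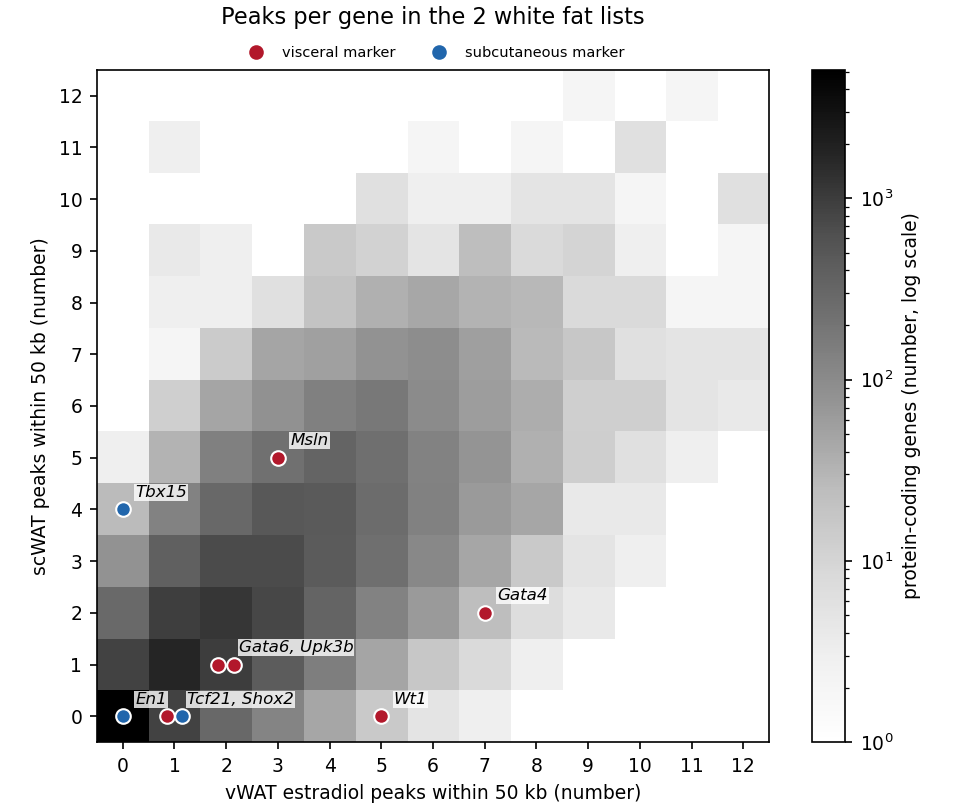
Each square is coloured by the number of protein-coding genes (log scale) with a given number of vWAT estradiol peaks (horizontal axis) and scWAT peaks (vertical axis) within 50 kb, and genes above 12 on either axis are not drawn. Wt1 (5 and 0) and Gata4 (7 and 2) lie low and to the right, Tbx15 (0 and 4) lies on the left edge, and the other markers lie in squares that hold many genes.

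Many of these peaks lay nearer to another gene than to the marker. Where only peaks with the marker as the nearest protein-coding gene were kept, the visceral counts were 11 for vWAT with estradiol, 1 with vehicle, 1 in scWAT, 1 in BAT and 4 in Liver. The subcutaneous counts were 0, 0, 4, 0 and 2. Members with such a peak numbered 4 of 9 in vWAT with estradiol (Gata4, Gata6, Wt1 and Tcf21; 43.9% of all genes by this rule), 1 with vehicle (27.5%), 2 in scWAT (43.1%), 1 in BAT (17.5%) and 4 in Liver (49.9%). By this rule 4 members had more vWAT estradiol than scWAT peaks (Gata4, Gata6, Wt1 and Tcf21; 19.1% of all genes) and 1 had more scWAT peaks (Tbx15; 16.1%). Of the 11 vWAT estradiol peaks nearest to a visceral marker, 9 overlapped no peak of any other list, 1 was found in scWAT and 1 with vehicle, whereas 43.2% of the whole vWAT estradiol list overlapped no other list. Over all vWAT estradiol peaks near the 9 members the share was 57.1% (12 of 21). The median enrichment of those 21 peaks was 4.40, against 4.84 in the whole list. Of the 11 nearest to a visceral marker, 9 had a −log10 q of 2 or more. Sharing was not compared at equal peak strength. The 9 vWAT estradiol peaks near visceral markers that lay nearer to another gene were more widely shared. Of these, 6 were found in scWAT, 5 in Liver, 4 with vehicle and 2 in all 5 lists, while 3 were in no other list.

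**Figure D3:**
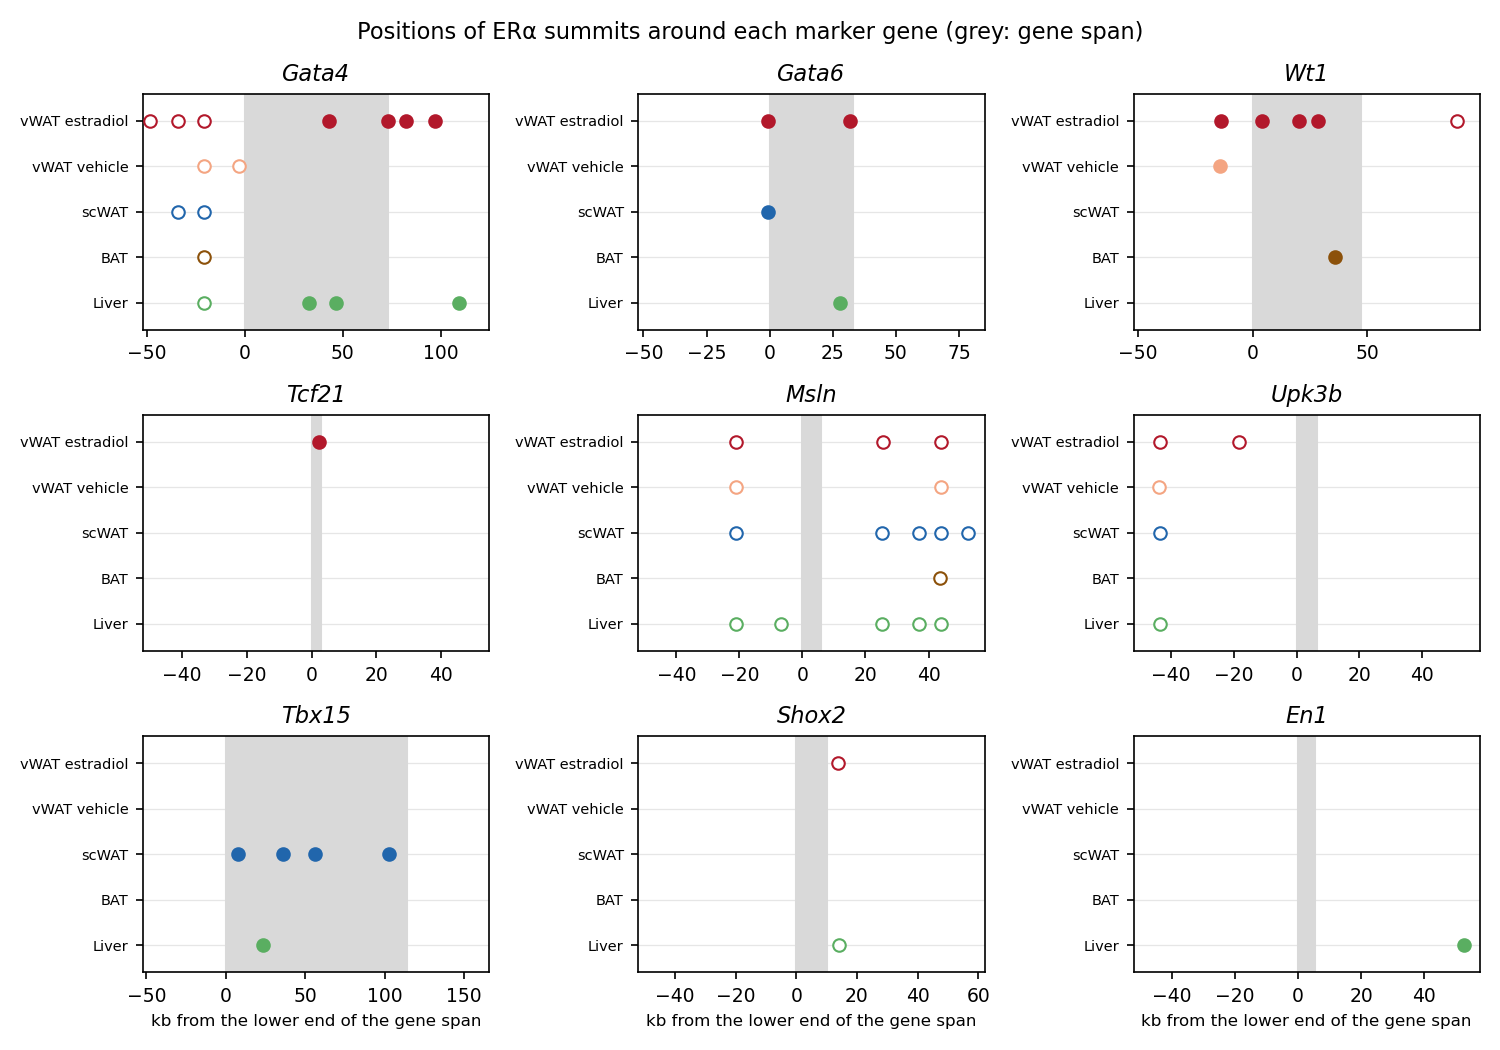
Points give ERα summits in kb from the lower-coordinate end of each gene span (grey), 1 row per list, filled where the marker is the nearest protein-coding gene and open where another gene is nearer. The filled points of Gata4 in the vWAT estradiol row run from inside the gene to 24.5 kb beyond its higher-coordinate end. Those of Tbx15 lie inside the gene in the scWAT row, and the open points near Msln and Upk3b stand at the same positions in several rows.

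Gata4 (chr14:63198914-63271712, mm10, a span of 72.8 kb) had the most vWAT estradiol peaks of the 9 members. Shares of all genes cover genes of every length, and a longer span takes in more sequence by construction. At least as many vWAT estradiol peaks as its 7 were found for 3.82% of protein-coding genes. The strongest, chr14:63295873-63296559, lay 24.5 kb beyond the higher-coordinate end of the span. Its enrichment, the authors' own ratio for the peak over a background that is not stated, was 17.4, rank 158 of 20715 in that list, with a −log10 p-value of 90.8. No other list had a peak there.

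On the same side of Gata4 stood weaker vWAT estradiol peaks 9.61 kb (enrichment 5.06) and 0.201 kb (4.40) from the higher-coordinate end of the span. A further one, counted among the 7, lay inside the span (3.06), close to the bottom of the list at rank 20474. Its −log10 q was 0.867, under 2. These 4 peaks nearest to Gata4 covered 54.2 kb from the first summit to the last and were absent from the vehicle, scWAT, BAT and Liver lists. The Liver list had 3 peaks of its own nearest to Gata4 (4.23, 4.15 and 2.49), 2 of them inside the span, and none overlapped a vWAT peak.

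The peaks on the other side of Gata4 were shared more widely. A peak 20.8 kb below the gene, inside Fdft1, which encodes squalene synthase, was present in all 5 lists, at an enrichment of 11.1 in vWAT with estradiol, 7.53 with vehicle, 3.87 in scWAT, 5.15 in BAT and 6.54 in Liver. A second peak inside Fdft1, 34.1 kb from Gata4, was in the vWAT estradiol (7.81) and scWAT (2.94) lists, and another stood 48.6 kb from Gata4, just within the limit, in vWAT with estradiol alone (3.94). All scWAT and BAT peaks counted for Gata4 were on this side, and so were both vehicle peaks, one of which (4.92) lay nearest to Neil2, a DNA repair glycosylase gene.

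Gata6 (chr18:11052510-11085636) had its main peak 0.497 kb outside the lower end of the span, inside the span of the noncoding gene Gata6os. In vWAT with estradiol this peak, chr18:11051605-11052334, had an enrichment of 9.98 (rank 2090, −log10 p-value 49.3). The scWAT list held an overlapping peak with an enrichment of 5.19 (rank 3470 of 17971, −log10 p-value 16.6). It was the only peak nearest to a visceral marker that both white fat depots shared. The nearest vehicle summit was 120 kb and the nearest BAT summit 136 kb from the gene.

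A second vWAT estradiol peak lay inside Gata6 (4.73), and a Liver peak at another place inside it (5.16). Neither overlapped a peak of another list. Gata6 and Tcf21 were the visceral markers with a vWAT estradiol peak and no vehicle peak, and Shox2 showed the same pattern (18.4% of all genes did).

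Wt1 (chr2:105126529-105173614) had 5 vWAT estradiol peaks and no scWAT peak, and its nearest scWAT summit was 109 kb away. The vWAT peaks were weak within their list. The strongest, chr2:105112370-105113182, lay 13.8 kb below the gene inside the span of the noncoding gene Wt1os and had an enrichment of 4.97, rank 9921 of 20715. It was also the one held with vehicle, at 4.30.

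The 3 peaks inside Wt1 had enrichments of 3.31, 3.58 and 3.87, ranks 19910, 18724 and 17010, and a peak 42.2 kb above the gene (3.57) lay nearer to Them7. The weakest peak inside the gene and the one nearer to Them7 had a −log10 q under 2 (1.54 and 1.57). BAT had a peak at a separate place inside the gene (5.26, rank 1018 of 5193). Liver had none within the window, with the nearest summit 50.7 kb away, just outside the limit.

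Tcf21 (chr10:22817263-22820143), a short gene of 2.88 kb, had 1 peak across the 5 lists. It was the vWAT estradiol peak chr10:22819490-22819800, inside the gene, 0.577 kb from its start and within the span of the noncoding gene Gm10824, with an enrichment of 4.40 and rank 13189. It did not reach the promoter window printed above. The summits next nearest to the gene stood just outside the 50 kb limit at 55.4 kb with vehicle, 55.6 kb in scWAT and 55.7 kb in BAT.

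**Figure D4:**
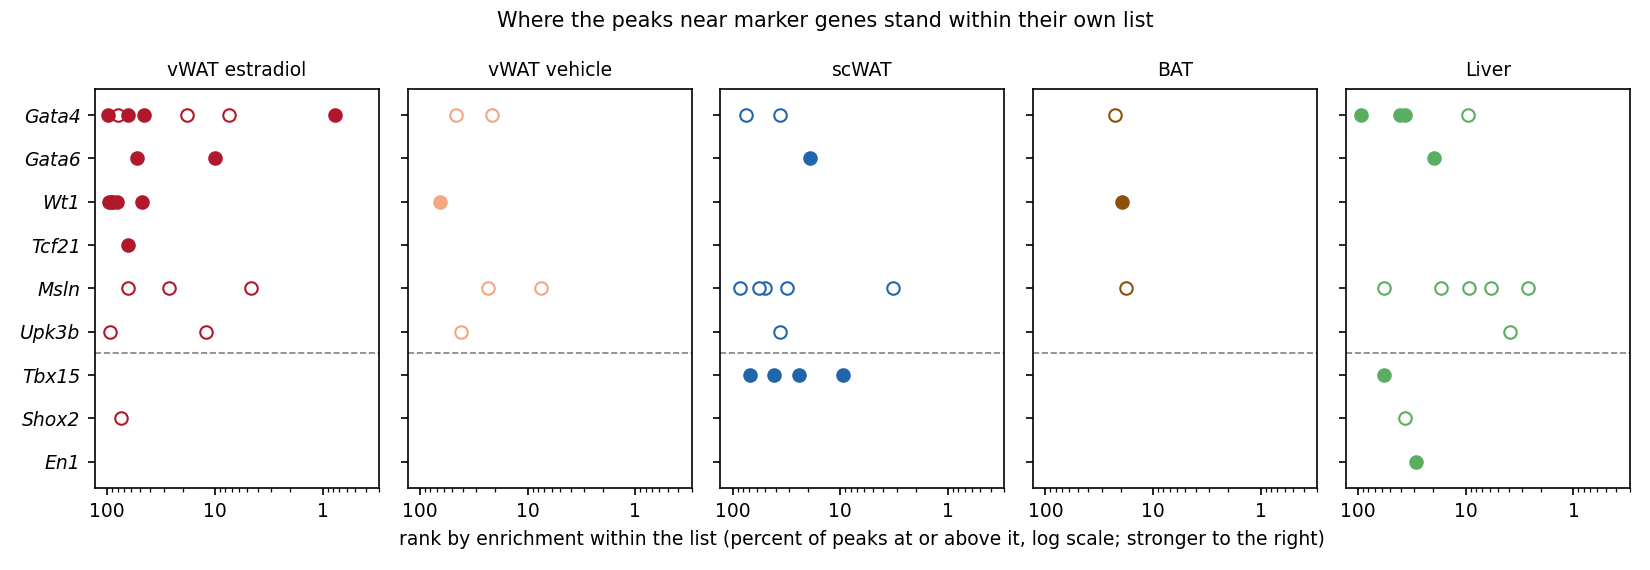
Each point is a peak within 50 kb of a marker, placed by its rank within its own list (percent of the list at or above it, log scale, stronger to the right), with filled points where the marker is the nearest protein-coding gene. The Gata4 peak at 0.763% is the furthest right among all points, the Wt1 peaks of vWAT with estradiol lie between 47.9% and 96.1%, and the Tbx15 peaks of scWAT between 9.42% and 69.4%.

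Msln (chr17:25748613-25754378) lies among 9 other protein-coding genes within the window, and no peak of any list had it as nearest gene. Its strongest peak, nearest to Antkmt, a mitochondrial protein methyltransferase gene, was found in all 5 lists. The enrichments there were 12.7 in vWAT with estradiol, 12.5 with vehicle, 10.6 in scWAT, 5.41 in BAT and 11.4 in Liver. A peak at the shared start region of Chtf18 and Rpusd1, which run in opposite directions, was found in all lists but BAT.

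A peak at Ciao3 was in the vWAT estradiol (4.36), scWAT (2.75) and Liver (6.62) lists. The scWAT count exceeded the vWAT count through a peak at Haghl and Ccdc78 (3.43), shared with Liver, and one nearest to Metrn (3.26) in no other list. The Liver peak closest to Msln, 6.88 kb away (3.33), lay nearer to its paralog Mslnl. All 3 vWAT estradiol peaks and 4 of the 5 scWAT peaks lay within 1 kb of an end of another gene.

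Upk3b (chr5:136038496-136044993) likewise had no peak nearest to it. A peak 43.7 kb upstream, at the start of Dtx2, a ubiquitin ligase gene of the Notch pathway whose promoter is printed above, was found in vWAT with estradiol (9.29), with vehicle (5.06), in scWAT (3.88) and in Liver (9.91). The summits of all 4 lists fell inside the Dtx2 promoter window. A vWAT estradiol peak inside the Dtx2 span, 18.3 kb from Upk3b, was weak (3.42, rank 19649) and in no other list.

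Tbx15 (chr3:99240348-99354260, a span of 114 kb) was the subcutaneous marker with scWAT peaks. All 4 lay inside the gene, covered 95.1 kb from the first summit to the last, and overlapped no peak of any other list. Of the whole scWAT list, 35.9% overlapped no other list. The share was 38.5% of the 13 scWAT peaks near the 9 members, which include these 4, and 1 of the 9 near visceral markers. Sharing was not compared at equal peak strength. The strongest scWAT peak of Tbx15, chr3:99247809-99248299, 7.75 kb from the lower end of the span, had an enrichment of 7.24 (rank 1693 of 17971, −log10 p-value 31.3). The others, in order along the chromosome, had enrichments of 4.63, 3.08 and 3.70.

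The nearest vWAT estradiol summit was 99.1 kb from Tbx15, the nearest vehicle summit 627 kb and the nearest BAT summit 1134 kb away. Liver had 1 weak peak inside the gene at another place (3.33). At least 4 scWAT peaks without a vWAT estradiol peak were found for 0.143% of protein-coding genes, and the mirror pattern shown by Wt1, at least 5 vWAT estradiol peaks without a scWAT peak, for 0.111%. Both limits were chosen after the counts of these members were seen, and 4 scWAT peaks or more were found for 21.2% of genes. These shares cover genes of every length, and Tbx15 has the longest span of the 9 members. The 5 peaks of Wt1 include those with a −log10 q of 1.54 and 1.57.

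Shox2 (chr3:66971723-66981771) had 1 vWAT estradiol peak (4.07, rank 15574), 3.67 kb upstream of its start, and 1 Liver peak (4.23) that overlapped it. Both lay inside Rsrc1, a gene of RNA splicing whose span overlaps that of Shox2 and whose promoter is printed above. The vWAT summit fell inside that promoter window and the Liver summit inside the other Rsrc1 window. The nearest summits of the other lists were 249 kb (BAT), 379 kb (scWAT) and 449 kb (vehicle) away.

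En1 (chr1:120602487-120607991) had no peak in any of the 4 fat lists. Its single peak, in Liver (4.62), lay 47.1 kb downstream, inside the span of the noncoding gene 2610027F03Rik. A Liver peak with none in the fat lists was found for 7.09% of genes. The nearest summits of vWAT with estradiol and of scWAT were each 151 kb away.

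Genes related to the members were examined with the same window. The tallies that follow stand beside 28.5% of all genes with more vWAT estradiol peaks and 27.4% with more scWAT peaks, and nothing particular to a list is read from them. Among 6 other GATA genes and cofactors of the FOG type, 3 had more vWAT estradiol than scWAT peaks and none had fewer. These were Zfpm2, a cofactor of Gata4 (8 against 2, vWAT enrichment up to 15.1), Zfpm1 (4 against 2, 7.88) and Gata5 (1 against 0, 5.37). Gata1, Gata2 and Gata3 had peaks only in the Liver list among the 5.

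Of 8 T-box genes, 3 had more vWAT estradiol peaks and 1 (Mga) more scWAT peaks. Tbx1, Tbx2 and Tbx4 had 1 vWAT estradiol peak each and no scWAT peak, with the neighbours Tbx2 and Tbx4 sharing theirs, and Tbx3, a limb and mammary factor, had 1 peak in each list, with an enrichment of 10.4 in scWAT. Of 8 genes related to Tcf21, 4 had more vWAT estradiol and 1 more scWAT peaks. Tcf24 (2 against 1), Msc (2 against 1) and Twist2 (5 against 3) had more in vWAT, and Tcf23 (2 against 3) more in scWAT.

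Of 8 limb and trunk homeobox genes, 1 had more vWAT estradiol and 2 more scWAT peaks. Prrx1, a limb mesenchyme factor, had 4 and 1 (up to 14.3 and 11.8), Prrx2 8 and 8, Pitx1 1 and 1, and Alx4 2 and 3. Of 8 genes of visceral mesoderm and the gonadal ridge, 4 had more vWAT estradiol and 2 more scWAT peaks. Aldh1a1 (6 and 4) and Aldh1a2 (2 and 1) encode enzymes of retinoic acid synthesis, Osr1 had 1 and 0, and Nr5a1, the gene of steroidogenic factor 1, had 1 and 2.

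The other genes described for depot patterning did not divide by side. On the visceral side, 3 of 5 genes had more vWAT estradiol than scWAT peaks, namely Hoxc8 (4 and 1), Hoxa5 (4 and 3) and Thbd, thrombomodulin (2 and 1). On the subcutaneous side, 3 of 4 also had more vWAT estradiol peaks, namely Hoxc9 and Hoxc10 (each 4 and 0) and Hoxa9 (4 and 3), while Sfrp2, a secreted Wnt inhibitor, had 1 and 1. No gene of either side had more scWAT peaks. Neighbouring Hox genes share peaks, so their counts are not separate.

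Of 10 other mesothelial markers, 8 had a peak in vWAT with estradiol and 9 in scWAT, beside 70.5% and 70.2% of all genes. More vWAT estradiol than scWAT peaks were found for 3, more scWAT peaks for 3, and equal counts for 4. The vWAT estradiol, scWAT and Liver lists each held 20 peaks near these 10 genes. Among the genes were Cldn15 (5 and 5), Rspo1 (2 and 1), Krt8 (2 and 2) and Krt19 (3 and 4). Upk1b (0 and 2) and Bnc1 (0 and 1) had no vWAT estradiol peak, and Gpm6a (2 and 0) had no scWAT peak. The lists hold binding, not expression, so tissue labels could not be checked by marker expression. All 6 adipocyte genes had a peak in both white fat lists and in Liver (70.5%, 70.2% and 77.4% of all genes), with 30 peaks in vWAT with estradiol, 17 in scWAT and 18 in Liver. Of these 6 genes, 4 had more vWAT estradiol than scWAT peaks and 1 more scWAT peaks (28.5% and 27.4% of all genes). They were Lep (7 vWAT estradiol and 1 scWAT), Fabp4 (3 and 1), Adipoq (3 and 3), Cidec (4 and 5), Pparg (9 and 5) and Plin1 (4 and 2). Of 6 hepatocyte genes 5 had a Liver peak (77.4% of all genes did). In each white fat list 3 of the 6 had a peak (70.5% and 70.2% of all genes). Hnf4a had 7 in Liver, 5 in vWAT with estradiol and 4 in scWAT, and Apoa1 had 5, 1 and 1. Alb, the gene of albumin, had 6 in Liver and none in the fat lists. Of 6 brown fat genes 5 had a BAT peak (39.7% of all genes did), with 7 BAT peaks in all against 19 in vWAT with estradiol. Prdm16 had 3 in BAT and 4 in vWAT with estradiol, Ebf2 1 and 6, Cidea 1 and 6, and Ucp1 0 and 3. Zic1 and Lhx8 went the other way, each with 1 in BAT and 0 in vWAT with estradiol.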

How the data were processed

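ERα ChIP-seq gave 5 deposited peak lists without headers. Per the submitters' processing notes the build was mm10, with BWA 0.7.12 and HOMER among the tools. Peak caller, cut-off, control and any pooling of libraries: not given in the sources used here. Each deposited peak carries the authors' enrichment ratio over an unstated background, a −log10 p-value, a −log10 q-value, a score derived from the p-value, and the summit. Read depth is unknown. Enrichments printed side by side for several lists are each relative to their own list and show no change between lists. H3K27ac ChIP-seq (4 samples) and RNA-seq (5 samples) were not analysed here.

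Groups were taken from the labels. Peaks on chromosomes 1 to 19 and X were kept. Gene spans, without exons, came from RefSeq on GRCm38.p6. A summit within 50 kb of a span counted for the gene, and peaks overlapping by at least 1 bp were called shared. Alternatives were windows of 25 kb, 100 kb and the span alone, a q-value limit (−log10 q of 2 or more), lists held to 5193 peaks, nearest-gene assignment, stricter overlap, and leaving out peaks at ends of other genes, peaks of all 5 lists, or the member with most vWAT estradiol peaks. That member was Gata4, or Shox2 on the subcutaneous side, so Tbx15, which held all subcutaneous scWAT peaks, was not left out. All 9 members were named, with up to 5 peaks given by position per list (for Gata4 the weakest were added after their values were seen), and up to 4 genes of each of 11 other lists by the largest enrichment in vWAT with estradiol or scWAT, a choice that ranks across both lists, of which 1 hepatocyte gene is not reported here. Mga, Gata1, Gata2, Gata3, Alb, Ucp1, Zic1, Lhx8, Upk1b, Bnc1, Gpm6a, Pparg and Plin1 were named after their values were seen. Members and lists were chosen with earlier results of these data known. Python 3.11.15, numpy 2.4.6, pandas 2.3.3 and matplotlib 3.10.9 were used, and the counting was tested on simulated summits. Coordinates count from 1.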

Additional observations from a re-analysis of the deposited data

How the results depend on the processing

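Counts depended on the window and on how peaks were assigned. In the order vWAT estradiol, vWAT vehicle, scWAT, BAT, Liver, the visceral counts (20, 6, 9, 3 and 11) were 36, 13, 23, 7 and 26 within 100 kb, 6, 0, 0, 1 and 3 inside spans, and 11, 1, 1, 1 and 4 for nearest genes. Within 25 kb they were 15, 4, 4, 2 and 7. With lists held to 5193 peaks they were 7, 6, 2, 3 and 7. Without peaks at ends of other genes they were 16, 3, 4, 2 and 6. They were 18, 4, 7, 1 and 9 without peaks of all 5 lists, and 13, 4, 7, 2 and 7 without Gata4. In the counts of peaks and members that follow, values not given stayed within 1.5 times the main value. The subcutaneous counts (1 in vWAT with estradiol, 4 in scWAT, 3 in Liver) became 2 in vWAT with estradiol and 7 in Liver within 100 kb, 0 and 1 inside spans, 0 in vWAT with estradiol for nearest genes or without Shox2, and 0, 2 and 0 with lists held to 5193 peaks. Members with a peak (7, 4, 5, 3 and 7) were 4, 0, 1, 1 and 3 inside spans and 4, 1, 2, 1 and 4 for nearest genes. With lists held to 5193 peaks they were 4 in vWAT with estradiol, 3 in scWAT and 4 in Liver, within 100 kb 5 in BAT, without peaks at ends of other genes 2 with vehicle, and without peaks of all 5 lists 1 in BAT. Members with more scWAT than vWAT estradiol peaks (2) were 1 within 25 kb, inside spans, for nearest genes and with lists held to 5193 peaks. Members with more vWAT peaks (6) were 4 inside spans, 4 for nearest genes and 3 with lists held to 5193 peaks. Leaving out peaks with a −log10 q under 2 moved no count summed over members by over 1.5 times. However, Wt1 fell from 5 to 3 vWAT estradiol peaks, and Gata4 lost the one inside its span (−log10 q 0.867). Upk3b fell from 2 to 1, level with scWAT, so that members with more vWAT peaks were 5. The share of vWAT estradiol peaks near members that was found with vehicle (23.8%) or in Liver (28.6%) was 57.1% in each case (4 of 7 peaks) with lists held to 5193 peaks. Ranking by p-value chose the same strongest peak for each member in every list. The cause was not tested, except that shorter lists, smaller windows and fewer genes hold fewer peaks by construction.

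No paired analysis was possible because each group had 1 deposited list, without values per library, and leaving out single replicates was not possible for the same reason. Read depth behind the lists is unknown, and a peak missing from a list is not shown to be absent.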
